A study of Mus musculus with 6 samples.

Results

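DNA methyltransferases and the cofactors that keep DNA methylation in place were read at the RNA level in C2C12, an established line of mouse myoblasts, after culture with or without 5-azacytidine (5AC). The members were 8 genes, Dnmt1, Dnmt3a, Dnmt3b, Dnmt3l, Uhrf1, Uhrf2, Hells and Usp7, chosen by name. Every array probe set whose only gene symbol in the platform annotation was one of these was taken, which gave 25 of the 45037 probe sets tested. Cells seeded at 1500 per square centimetre grew in medium with newborn calf serum, then stayed 3 days without drug (3 arrays) or with 10 µM 5AC (3 arrays) and were still subconfluent. Labelled cRNA from total RNA went onto Affymetrix mouse expression arrays, 1 per sample. C2C12 is 1 established line, and the sources used here do not state whether the replicates were grown apart, so each p-value covers the spread among these arrays, which may be technical.

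Methylation of cytosine in CpG pairs is set by the de novo enzymes and copied after each round of replication by the maintenance enzyme. UHRF1 reads the half-methylated DNA behind the replication fork and ubiquitinates histone H3, which brings DNMT1 to its substrate; the remodeller HELLS opens chromatin for methylation, and USP7 removes ubiquitin from DNMT1 and UHRF1. 5AC is a cytidine analogue that, once built into DNA, binds the catalytic cysteine of DNA methyltransferases covalently, so that the enzymes are trapped and degraded as proteins. The arrays measure RNA and not these proteins.

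The deposited values were processed intensities on a linear scale, with array medians of 20.36 to 21.04 and 2.42% to 2.59% of values below 0. Arrays of 1 group correlated at 0.965 to 0.971 in log2 values, and arrays of different groups at 0.949 to 0.954. The number of arrays limits the precision. The myoblast markers Myod1, Myf5, Des, Cdh15, Itga7 and Msc were above the median probe set mean of 20.7 in untreated cells. Myod1 was at an intensity of 507.6 ± 33.8 and Des at 1040.9 ± 43.6 (mean ± SD, n = 3, as for all such values here). Pax7 and Myf6, also listed as myoblast markers, were under that median, at 13.2 ± 2.62 and 13.6 ± 6.29. Actb, a housekeeping actin gene, was at 7420.0 ± 133.5 untreated and 7762.6 ± 286.1 in 5AC. A probe set was called when its limma p, adjusted by Benjamini-Hochberg over all 45037 probe sets, was under 0.05. Log2 changes are 5AC minus untreated, of log2(intensity + 1).

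The machinery did not move as a block. RNA of the maintenance pair Dnmt1 and Uhrf1 fell in 5AC cells, with changes of -45.5% to -26.6% in the mean across their 5 probe sets, RNA of Usp7 and Uhrf2 was higher by a similar log2 amount on their brightest probe sets, Dnmt3a rose on 2 dim probe sets, and Hells gave opposite signs on different probe sets. Of the 25 member probe sets, 6 were called higher and 7 lower, and 12 did not pass. Over all probe sets, 16.9% were called, 8.15% higher and 8.75% lower. Bright probe sets were called more often: 29.2% of those with both group means at or above the median were called, against 10 of 18 such member probe sets. The groups did not overlap for 17 of 25 member probe sets and for 36.8% of all probe sets. The members' median log2 change was 0.11, beside -0.01 over all probe sets. These figures count probe sets of 8 genes, which are not independent readings: Usp7 gives 7 of the 25 and Dnmt3a 5. Calls were fewer, 6 to 11 of 25, when any 1 array was left out, fewest without 5AC replicate 1.

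**Figure D1:**
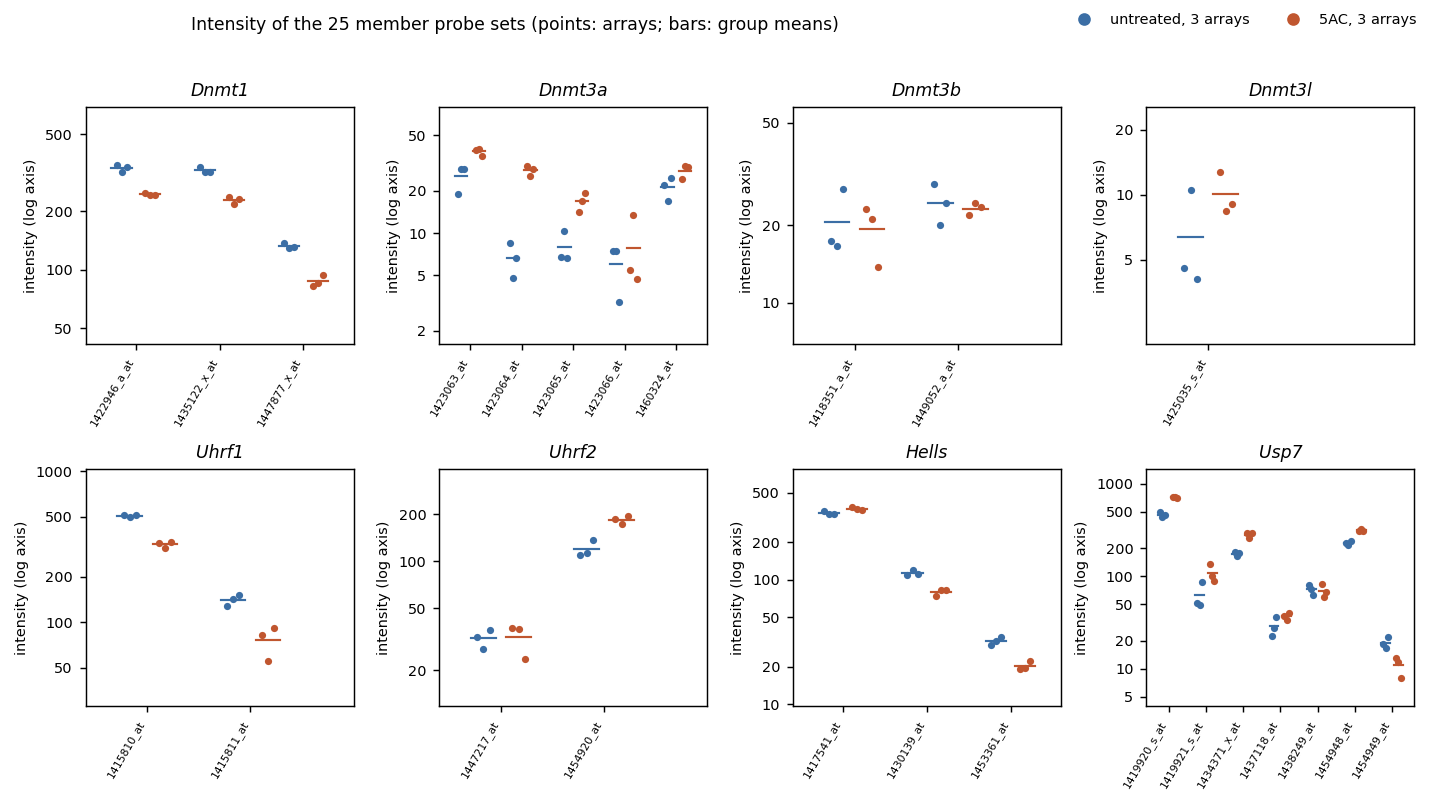
Intensity of each of the 25 member probe sets on 3 untreated (blue) and 3 5AC (orange) arrays, 1 panel per gene with its own log axis; points are arrays and bars are group means. All probe sets of Dnmt1 and Uhrf1 were lower in 5AC without overlap, while those of Hells and Usp7 went in different directions.

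Dnmt1 encodes the maintenance methyltransferase. All 3 of its probe sets fell. The brightest, 1422946_a_at, read 345.9, 318.3 and 337.2 on the untreated arrays and 249.5, 244.2 and 241.7 on the 5AC arrays. Every 5AC array was lower than every untreated one, the mean was lower by 26.6%, and the log2 change was -0.44 ± 0.07 (SE; adjusted p = 0.0144, limma). Probe set 1435122_x_at went from 326.2 ± 11.6 to 228.8 ± 10.5 (log2 change -0.51 ± 0.07) and 1447877_x_at from 132.5 ± 4.75 to 87.4 ± 5.73 (-0.60 ± 0.08). The suffix x marks probes that may also bind other transcripts, and the suffix a marks probes shared by transcripts of 1 gene. Their changes differed from that of 1422946_a_at by -0.07 and -0.15 on the log2 scale, with overlap between groups (exact permutation p = 0.3 and 0.2, two-sided). Both x probe sets were called with any 1 array left out, whereas the call of 1422946_a_at was lost without untreated replicate 1 or any of the 5AC replicates (adjusted p = 0.0536 to 0.0568, limma).

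Uhrf1 encodes the reader that recruits DNMT1. Its bright probe set 1415810_at read 515.8, 497.2 and 509.5 untreated and 336.9, 312.5 and 339.5 in 5AC. The groups were far apart relative to their spread; the 5AC mean was lower by 35.1%, with a log2 change of -0.62 ± 0.07 (adjusted p = 0.00632, limma). This call held with any 1 array left out. The dimmer probe set 1415811_at read 128.4, 142.2 and 152.9 untreated and 83.1, 55.8 and 92.0 in 5AC, a log2 change of -0.89 ± 0.21 (adjusted p = 0.0448, limma). 5AC replicate 2 was lowest there, and the call was lost in each of the 5 fits that left out another array (adjusted p = 0.0589 to 0.125, limma). On each array the bright probe set of Uhrf1 can be set against the brightest of Dnmt1. The difference changed by -0.18, with no overlap (exact permutation p = 0.1, two-sided). That is the smallest p that 3 against 3 arrays allow, and it was 0.11 adjusted over 11 such comparisons, which misses the threshold. Only this pair of probe sets was compared. The other Dnmt1 probe sets changed by -0.51 ± 0.07 and -0.60 ± 0.08. The size of the gap to Uhrf1 1415810_at, at -0.62 ± 0.07, thus depends on the Dnmt1 probe set chosen. Beside -0.60 the gap is within the SE.

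Hells encodes the SNF2-family remodeller also called LSH. Its probe sets disagreed. The brightest, 1417541_at, read 358.4, 337.6 and 336.8 untreated and 386.2, 368.8 and 361.2 in 5AC, which is slightly higher without overlap but was not called (log2 change 0.11, 95% interval -0.07 to 0.29, adjusted p = 0.371, limma). Probe set 1430139_at read 108.7, 118.9 and 111.1 untreated and 74.1, 82.2 and 82.2 in 5AC and fell (log2 change -0.50 ± 0.08). Probe set 1453361_at went from 32.4 ± 2.47 to 20.5 ± 1.68 and also fell (-0.64 ± 0.10, or -0.41 with 16 instead of 1 added before the log). Against the brightest probe set on the same array, these 2 changed by -0.61 and -0.75 with no overlap (exact permutation p = 0.1 each, the smallest possible, and 0.243 adjusted over 17 probe set comparisons). The share of this gap that lies in different transcript ends or forms, or in probes that bind other RNA, was not tested. Both calls were lost without untreated replicate 2, 5AC replicate 1 or 5AC replicate 2 (adjusted p = 0.0528 to 0.0605, limma).

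**Figure D2:**
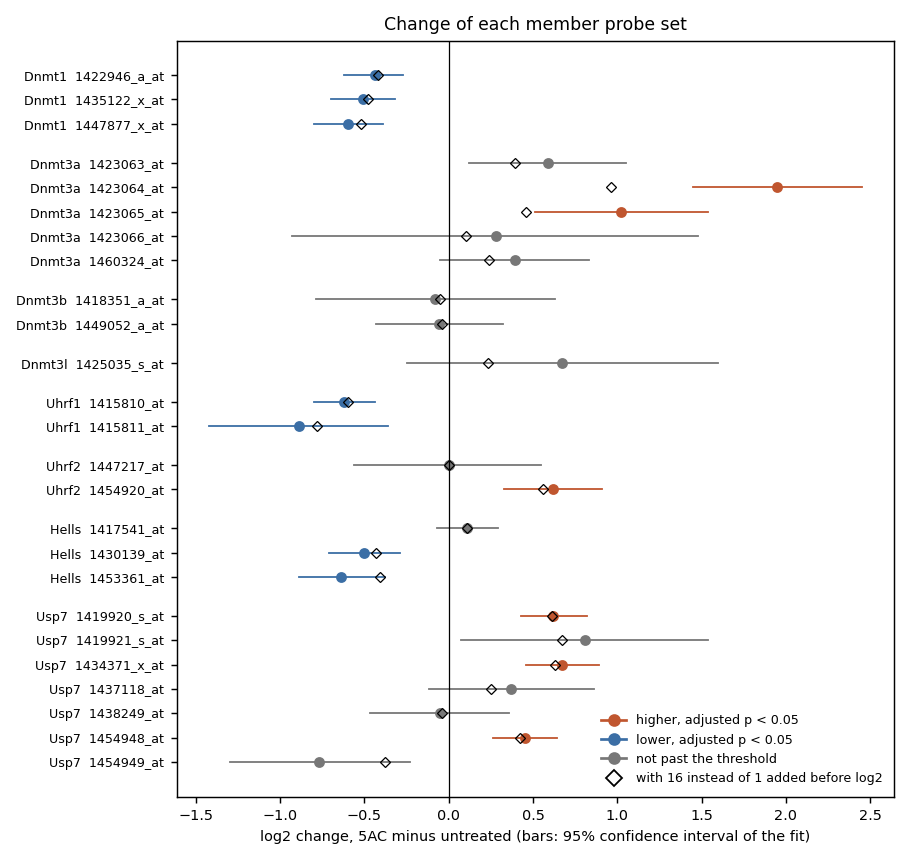
Log2 change of each member probe set, 5AC minus untreated, with its 95% confidence interval from the fit; orange and blue points were called higher and lower, grey points were not called, and open diamonds show the change with 16 instead of 1 added before the log. The probe sets of Dnmt1 and Uhrf1 lie on the negative side, and the change of 1.95 for Dnmt3a 1423064_at shrinks to 0.96 with the larger offset.

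E2F transcription factors switch on genes of DNA synthesis. The members' promoter windows were searched for the E2F-type motif, which was chosen after the values of these genes were known, so that its matches are a description and test nothing. The motif was the letters TTTCCCGC, TTTCGCGC, TTTGCCGC or TTTGGCGC on either strand, counting overlapping matches. All 8 members matched entries of the RefSeq promoter table (GRCm38.p6), with 15 windows of 300 bases, each ending 50 bases after an annotated start. A match was found in 1 window each of Dnmt1, Uhrf1 and Hells, and in no window of the other 5 genes. Over all genes in the table, 2.60% had a window with a match (704 of 27025), and among the 32 S phase genes of the list described further on that had a window, 13 did (40.6%). Of the other lists, a match was found for 1 of 25 mitosis genes (4%), 0 of 21 methyl donor genes, 5 of 28 recruiting factors (17.9%) and 3 of 36 germline genes (8.33%). The stretches around the 4 matches are shown so that the letters can be read in place, with the matched letters in capitals; the genes match different strings of the motif. The Dnmt1 window starts from the third of its annotated starts, so its matches can lie inside transcripts from the other starts; the Uhrf1 window is that of its second annotated start. A match is a string of letters and not a measured binding site.

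Dnmt1, chr9:20952824-20952853, minus strand, match at -219 to -212 from the start: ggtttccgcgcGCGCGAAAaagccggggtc
Dnmt1, chr9:20952574-20952601, minus strand, match at 34 to 41 after the start: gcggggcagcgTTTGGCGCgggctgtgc
Uhrf1, chr17:56304117-56304146, plus strand, match at -185 to -178: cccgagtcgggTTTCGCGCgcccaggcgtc
Hells, chr19:38930917-38930946, plus strand, match at -62 to -55: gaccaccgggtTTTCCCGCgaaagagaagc

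The 1 window of Hells, chr19:38930740-38930989 on the plus strand, is given up to the base before the start, because its match lies closest upstream of a start and its probe sets disagreed: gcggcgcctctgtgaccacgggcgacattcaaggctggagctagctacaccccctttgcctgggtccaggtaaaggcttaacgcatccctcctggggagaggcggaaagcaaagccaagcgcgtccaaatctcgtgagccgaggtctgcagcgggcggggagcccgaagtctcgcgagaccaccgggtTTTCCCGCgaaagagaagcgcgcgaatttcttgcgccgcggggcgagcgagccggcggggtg. The windows also differed in CpG pairs, the target of the enzymes themselves. The 3 windows of Dnmt3l held 3 to 6 CpG pairs, below the median of 7 over all windows, and the window of Usp7 held 63. The windows with a motif match held 33 or 34. Every string of the motif itself holds a CpG pair, and the share of matches over all genes was not taken at like CpG count.

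The de novo enzymes were dim on these arrays. Dnmt3a had 5 probe sets, all with a positive log2 change, of which 2 were called. Probe set 1423064_at read 8.42, 4.80 and 6.66 untreated and 30.1, 25.4 and 28.7 in 5AC. The untreated values lie below the median probe set and no 5AC value comes near them, and the call held with any 1 array left out (log2 change 1.95 ± 0.20, adjusted p = 0.00476, limma; 0.96 with 16 added). Probe set 1423065_at rose from 7.88 ± 2.08 to 16.8 ± 2.57 (1.02 ± 0.20, or 0.46 with 16 added), a call kept in the fit without untreated replicate 2 and lost in the other 5 (adjusted p = 0.0595 to 0.0927, limma). The brightest, 1423063_at, was at 25.6 ± 5.56 untreated and at 39.4, 39.9 and 35.4 in 5AC. Its groups did not overlap, but it was not called (0.59 ± 0.18, adjusted p = 0.0949, limma), and with 16 added the adjusted p was 0.0467. Probe sets 1460324_at and 1423066_at had changes of 0.39 and 0.28 with overlapping groups. The change of 1423064_at was larger than that of 1423063_at by 1.37 on the log2 scale, without overlap (exact permutation p = 0.1, the smallest possible, and 0.243 adjusted over 17 comparisons), or by 0.57 with 16 added.

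Dnmt3b, the other de novo enzyme, was not called on either probe set. Probe set 1449052_a_at read 28.8, 20.0 and 24.4 untreated and 21.8, 24.3 and 23.4 in 5AC, so the groups lay on top of each other (log2 change -0.06, 95% interval -0.43 to 0.32). Probe set 1418351_a_at had a log2 change of -0.08 with a 95% interval from -0.79 to 0.63, so changes within that range are not excluded there. Dnmt3l, a catalytically inactive partner of the de novo enzymes in germ cells, read 4.56, 10.5 and 4.06 untreated and 12.8, 8.44 and 9.09 in 5AC on its 1 probe set, 1425035_s_at. All 6 values were below the median probe set, the groups overlapped, and the change of 0.67 was not called (95% interval -0.25 to 1.60; 0.23 with 16 added). The suffix s marks probes shared by transcripts of more than 1 gene.

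Usp7 encodes the deubiquitinase that acts on DNMT1, UHRF1 and also MDM2. It had 7 probe sets, 3 of them called and all 3 higher. The brightest, 1419920_s_at, read 496.4, 438.2 and 455.6 untreated and 718.7, 712.4 and 708.7 in 5AC. The 5AC arrays sat close together and well above the others, with a mean higher by 53.9% and a log2 change of 0.62 ± 0.08 (adjusted p = 0.00784, limma). Probe set 1434371_x_at rose from 175.5 ± 7.81 to 281.0 ± 19.5 (0.67 ± 0.09), and both calls held with any 1 array left out. Both carry a suffix, s or x, of probes that may also bind transcripts of other genes. The share of other RNA in their rise was not tested. Among the Usp7 probe sets without a suffix, only 1454948_at was called. Probe set 1454948_at rose from 229.4 ± 11.8 to 312.9 ± 9.06 (0.45 ± 0.07), a call kept only in the fit without untreated replicate 3 (adjusted p = 0.0539 to 0.0644 in the other 5, limma). Of the remaining 4, 1419921_s_at and 1437118_at had changes of 0.81 and 0.37, 1438249_at was flat at 72.1 ± 9.54 and 69.6 ± 11.4, and the dim 1454949_at went the other way, from 19.0 ± 2.65 to 10.9 ± 2.71, without overlap and without a call (-0.77 ± 0.21, adjusted p = 0.0693, limma; with 16 added -0.38, adjusted p = 0.0359). Against 1419920_s_at on the same array, 1438249_at changed by -0.68 and 1454949_at by -1.39, both without overlap. For each the exact permutation p was 0.1, the smallest possible, and 0.243 adjusted over 17 comparisons.

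Uhrf2 encodes the paralogue of UHRF1, which binds hydroxymethylated DNA and does not replace UHRF1 in maintenance. Probe set 1454920_at read 110.0, 113.5 and 136.4 untreated and 185.8, 172.1 and 195.1 in 5AC. The groups were well separated (log2 change 0.62 ± 0.11, adjusted p = 0.0221, limma), so the paralogues had called changes of opposite sign. The call held without untreated replicate 3 and was lost without any of the other 5 arrays (adjusted p = 0.0578 to 0.0801, limma). The dimmer 1447217_at read 32.5, 27.4 and 36.2 untreated and 37.2, 36.7 and 23.4 in 5AC, with full overlap and a 95% interval of -0.56 to 0.55.

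**Figure D3:**
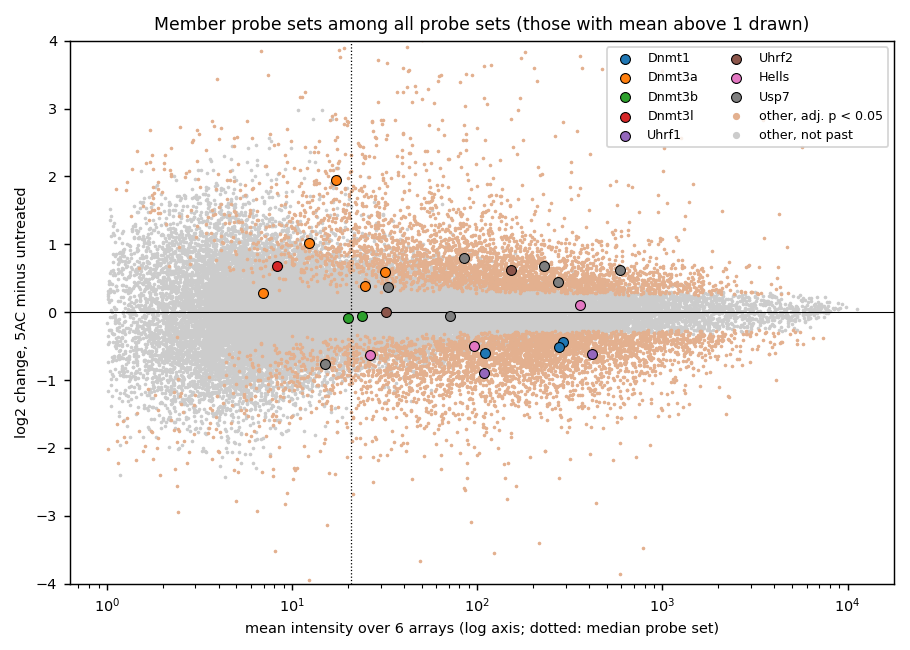
Log2 change, 5AC minus untreated, against mean intensity over 6 arrays (log axis) for the 43850 probe sets with a mean above 1; small points are other probe sets, pale orange where called, large points are the members, and the dotted line is the median probe set. Changes beyond 4 in size (37 probe sets) are outside the axis. The members lie within the cloud of called and uncalled probe sets, with Dnmt3a 1423064_at the highest of them.

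Dnmt1, Uhrf1 and Hells are transcribed mainly in dividing cells, so each member was set beside 40 genes of DNA replication and S phase on the same array. Of these 40 genes, 28 were lower and 0 higher in 5AC, beside 10.8% lower and 11.6% higher over 18193 genes each represented by its brightest probe set; with any 1 array left out, 12 to 18 were lower. Their median log2 change was -0.43, beside 0.01 for all genes. Tk1, thymidine kinase, fell by 1.62 on the log2 scale and the helicase subunit gene Gins1 by 1.15. Of 29 mitosis genes 25 were lower and 0 higher, with Ccnb2 at -1.39 ± 0.09 and Cdc25c at -1.62 ± 0.10. In RNA from whole cultures, fewer cells in cycle and less RNA per cycling cell cannot be told apart.

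The mean log2 value of the 40 S phase genes was 8.77, 8.74 and 8.79 untreated and 8.29, 8.24 and 8.31 in 5AC, a change of -0.49. Against it, the brightest Dnmt1 probe set changed by 0.05 with overlapping groups (exact permutation p = 0.2, two-sided). A test of 3 against 3 arrays cannot show that the decreases were equal. The other Dnmt1 probe sets, at -0.51 and -0.60, were not compared in this way. Uhrf1 changed by -0.13 against the replication genes without overlap. The brightest Hells probe set changed by 0.60 against them. Its other probe sets, at -0.50 and -0.64 beside -0.49 for the replication genes, were not set against them on the same array. Usp7 and Uhrf2 changed by 1.11 each against the replication genes and Dnmt3a by 1.08 (0.85 with 16 added). Dnmt3b and the dim Dnmt3l, neither of them called, changed by 0.43 and 1.16 (0.42 and 0.69 with 16 added). Since the mean of the S phase genes fell by 0.49, a gene with no change of its own would stand about that much higher against them. All these differences except that of Dnmt1 were without overlap and had an exact permutation p = 0.1, the smallest possible, or 0.11 adjusted over 11 comparisons, which misses the threshold. The part of the lower S phase values in the decreases of Dnmt1 and Uhrf1 was not tested.

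**Figure D4:**
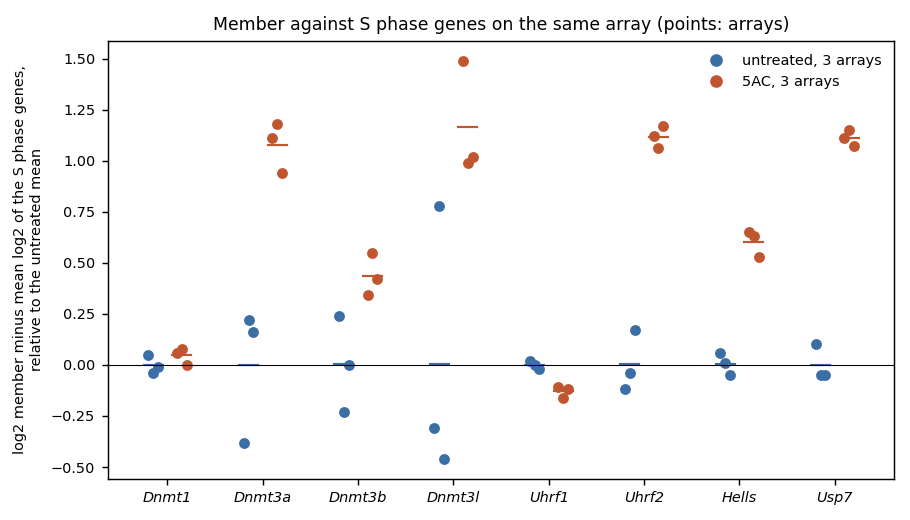
Log2 intensity of each member's brightest probe set minus the mean log2 intensity of 40 S phase genes on the same array, drawn relative to the untreated mean of each gene; points are arrays and bars are group means. For Dnmt1 the groups overlap, with 1 of the 3 5AC points within the range of the untreated ones and the others just above it; the 5AC points of Uhrf1 lie below the untreated ones and those of the other members above.

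Partners of the members went both ways. Of 29 measured genes whose products recruit, bind or regulate the members, 7 were higher and 5 lower, and 17 did not pass. Over all 18193 genes, 11.6% were higher and 10.8% lower. The 5 lower ones include Pclaf, whose product is ubiquitinated by UHRF1 at replication forks, from 1538.3 ± 8.07 to 600.2 ± 28.4 (log2 change -1.36 ± 0.07), the heterochromatin protein gene Cbx5 (-0.90 ± 0.07) and the replication ligase gene Lig1, whose methylated product binds UHRF1 (-0.81 ± 0.09). Pcna, the sliding clamp to which DNMT1 binds, fell from 4588 ± 132.9 to 3229 ± 195.0, a call lost without untreated replicate 1 or 2 or 5AC replicate 1 (adjusted p of at most 0.0535, limma). Nsd1, whose histone mark guides DNMT3A, rose from 125.5 ± 0.999 to 205.7 ± 5.36 (0.71 ± 0.06). Gmps, whose product activates USP7, rose by 0.33 ± 0.07; it was named after its value was seen, and its call was lost with any 1 array left out (adjusted p = 0.0675 to 0.102, limma). Cdca7 and Zbtb24, which act with HELLS, were not called (-0.37 ± 0.11 and 0.11 ± 0.09), and Dppa3, which keeps UHRF1 off chromatin in oocytes, was below the median probe set at 8.12 ± 5.16 and 7.10 ± 1.82. With any 1 array left out, 2 to 4 of these genes were higher and 4 or 5 lower.

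The methyl donor of all these enzymes is S-adenosylmethionine. Of 21 measured genes that make, recycle or feed it, 4 were higher, 7 lower and 10 did not pass. Over all genes, 11.6% were higher and 10.8% lower. The median log2 change of the 21 was -0.28 (-0.16 with 16 added), beside 0.01 for all genes. Ahcy, which clears the inhibitory product of methylation, fell from 1719.7 ± 45.2 to 1238.6 ± 43.4 (-0.47 ± 0.07), a call lost without 5AC replicate 1 (adjusted p = 0.0502, limma). The mitochondrial one-carbon genes Mthfd1l, Shmt2 and Mthfd2l fell by 1.30, 0.97 and 0.81 on the log2 scale, and the reduced folate carrier gene Slc19a1 rose from 145.3 ± 5.23 to 304.4 ± 21.2. Mat2a had no probe set with that symbol alone and is not analysed here. With any 1 array left out, 4 to 6 were lower.

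A list of germline genes, drawn up as silenced by promoter methylation, was read in the same fit, with 34 of them measured. Of these, 18 were higher and 0 lower, and 16 did not pass; all 18 changed at least 2-fold on the log2(intensity + 1) scale. Dazl, an RNA-binding protein gene of germ cells, read 548.7, 534.4 and 534.1 in 5AC and 2.02 or below 0 on the untreated arrays. Tex19.1, Slc25a31 and Mael rose by 5.37, 6.42 and 5.06 (4.21, 4.01 and 1.94 with 16 added). The median log2 change of the 34 genes was 1.68, or 0.66 with 16 added, beside 0.01 for all genes. Over all genes, 11.6% were higher and 10.8% lower. The list was chosen with this pattern known, so it is no independent support. Methylation was not measured. Some listed genes were above the median probe set untreated, such as Rhox5 at 36.1 ± 2.93 and Sohlh2 at 36.5 ± 8.9.

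**Figure D5:**
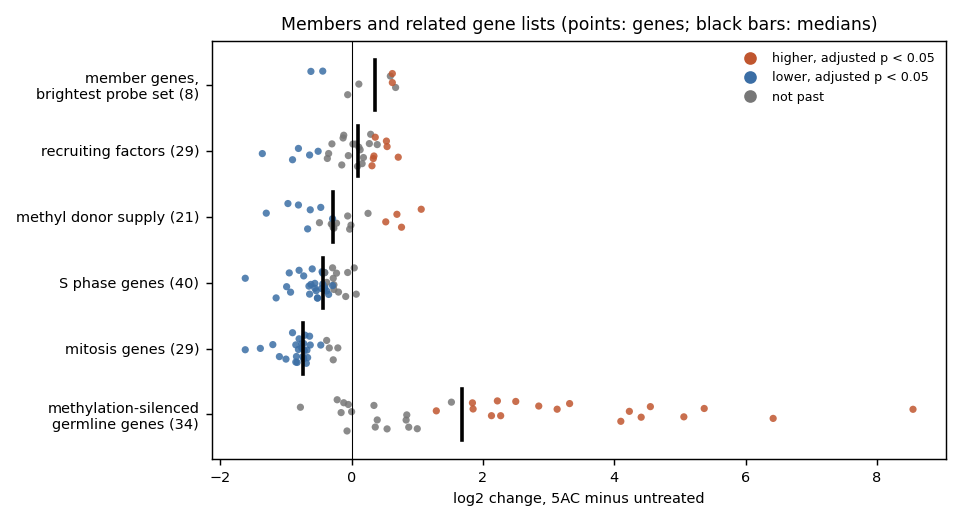
Log2 change, 5AC minus untreated, of the brightest probe set of each gene, with the number measured. The 8 members come first, then recruiting factors, methyl donor supply, S phase genes, mitosis genes and germline genes listed as silenced by methylation. Points are genes, orange and blue if called, and black bars are medians. The S phase and mitosis genes lie mostly below 0 and the germline genes mostly above, while members and partners lie on both sides.

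Some markers of cell state also differed between the groups. Of 9 markers of differentiated muscle, 8 were higher and 0 lower, and their summed intensity was 1264.3 to 1696.5 untreated and 5539.9 to 6098.1 in 5AC, with Tnnt3, Myh3, Actc1 and Tnnc2 rising by 2.54, 2.53, 2.42 and 2.33. The summed intensity of 8 myoblast markers was 3243.9 to 3492.2 untreated and 2356.6 to 2411.4 in 5AC, with 1 higher and 4 lower (Myf6 at 1.66, 0.99 with 16 added, and Msc, Itga7 and Myod1 at -1.71, -1.20 and -0.54 among them). The call of Myf6 (adjusted p = 0.0498, limma) was kept only without untreated replicate 1, with an adjusted p of up to 0.144 otherwise, and that of Myod1 was lost without untreated replicate 1, 5AC replicate 1 or 5AC replicate 2 (up to 0.0621). Of 7 fibroblast markers 1 was higher and 2 lower, Dcn and the collagen genes Col1a2 and Col1a1. The sum of the 7 was 1914.0 to 1979.6 untreated and 725.1 to 843.8 in 5AC. Most of it was Col1a2, with means of 1794.5 untreated and 638.2 in 5AC, and the median log2 change of the 7 was -0.06. Epithelial markers summed to 109.7 to 119.8 untreated and 2704.6 to 2976.2 in 5AC, with Krt8 and Krt18 called of 6. The calls of Col1a1 (without 5AC replicate 1 or 2) and of the adipocyte marker Cebpa (without untreated replicate 1 or 3 or 5AC replicate 1) were lost too. Markers of adipocytes (1 higher, 1 lower of 5, Pparg and Cebpa) summed to 122.9 to 143.5 and 170.1 to 182.2. Those of germ or pluripotent cells summed to 21.0 to 26.9 and 657.0 to 671.3, with Dazl and Ddx4 called of 6. None of 5 endothelial markers (sums of 40.0 to 47.0 and 34.0 to 47.6, Pecam1 at 3.68 ± 3.50 untreated) and none of 6 leukocyte markers (141.1 to 156.0 and 132.6 to 149.3, Itgam at 5.31 ± 1.15 untreated) was called, and no marker was at 0 on every array. The part of these shifts in the members' changes was not tested.

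The genes most like a member were found by the root mean square difference over the 6 arrays of log2 values centred on the untreated mean, among 10842 genes with a mean at or above the median. Nearest to Dnmt1 were Tex30 (0.0170), Srsf2 (0.0208) and Met (0.0226). Nearest to Uhrf1 were Commd1 (0.0174), Ildr2 (0.0186) and Anln (0.0216), nearest to the brightest Hells probe set were Mob4 (0.0130), Gsk3b (0.0205) and Psmg2 (0.0206), and nearest to Dnmt3a were Nrbp2 (0.0522), Fgd1 (0.0738) and Rubcn (0.0752). Genes chosen this way have the size of change of their member by construction.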

How the data were processed

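RNA was measured on 6 arrays, 3 untreated and 3 of 5AC-treated C2C12 cells; groups and replicate numbers come from the sample titles. The values the authors deposited are linear intensities, 1 per probe set and array. The submitters' processing notes list GCOS 1.4 and R 2.4.1 without saying what each did. How probes were summarized and arrays scaled is not given in the sources used here, and no detection calls were used, so dim values cannot be told from absent RNA.

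Of 45101 probe sets, 64 controls were left out; 34945 had 1 gene symbol, 932 several and 9160 none. Values below 0 were set to 0 before log2(intensity + 1), which shrinks or inflates changes of dim genes, so changes with 16 added are given beside them. All 45037 probe sets were fitted with limma 3.58.1 (lmFit, eBayes, two-sided; R 4.3.3; prior degrees of freedom 1.23). Gene lists used the probe set with the highest mean. Differences within arrays were tested by exact permutation, for which 0.1 is the smallest p. Same-numbered arrays did not deviate together (correlations -0.059, 0.03 and 0.013), so replicate numbers were not treated as pairs. The procedure was tested on simulated data. Alternatives were a replicate block, quantile normalization, centring on array medians, 16 added, a limit on dim probe sets, 1 probe set per gene, an intensity trend, a robust prior, fits without each array, and a fit without probe sets that had a value at or below 0, chosen after the data were seen. Members, lists and the rule for named genes (all members; up to 4 called genes with the largest change per list; 3 nearest genes for 4 members; and Cdca7, Zbtb24, Pcna, Mat2a, Ahcy, Dppa3 and Actb) were chosen with earlier results of these data known; the motif was chosen after seeing the data.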

Additional observations from a re-analysis of the deposited data

How the results depend on the processing

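Quantile normalization, median centring and leaving out probe sets with values at or below 0 changed no member's call or direction. With the replicate block, 0 member probe sets and 0 of all 45037 were called, against 13 and 7613 without it. With the block, 15 and 12060 had an unadjusted p under 0.05 (limma). Same-numbered arrays did not deviate together, but the sources used here do not say whether the replicate numbers pair the arrays. With 1 probe set per gene, 4 of 8 members were called, Dnmt1, Uhrf1, Uhrf2 and Usp7, beside 5353 of all 18193 genes. With any 1 array left out, 6 to 11 member probe sets and 3831 to 5451 of all were called. Adding 16 gave 2 further member calls, Dnmt3a 1423063_at and Usp7 1454949_at, and a limit on dim probe sets also called the former, and an intensity trend called Usp7 1419921_s_at; the robust prior ended 1, Uhrf1 1415811_at (adjusted p = 0.0507, limma). Leaving out single arrays turned the sign of uncalled probe sets: the log2 change was -0.14 to 0.53 for Dnmt3a 1423066_at, -0.22 to 0.14 for Dnmt3b 1418351_a_at, -0.19 to 0.07 for Dnmt3b 1449052_a_at, -0.11 to 0.21 for Uhrf2 1447217_at (0.00 with 16 added) and -0.18 to 0.05 for Usp7 1438249_at. It also turned the difference of Dnmt3a 1423066_at and 1460324_at from 1423063_at (-0.73 to 0.04 and -0.44 to 0.03) and of the Dnmt3b probe sets (-0.24 to 0.2). S phase genes lower numbered 26 to 36 under the other settings and partners higher 6 to 10, both without the block.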
